A study of Mus musculus with 2 samples.

Results

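Erythroid and haematopoietic transcription factors other than the Gata family were followed in whole mouse embryos: *Klf1*, *Tal1*, *Lmo2*, *Lyl1*, *Ldb1*, *Gfi1b*, *Nfe2*, *Runx1*, *Myb* and *Bcl11a*. These 10 genes were found by their Ensembl identifiers among 34624 loci, each of them a gene or a set of overlapping genes counted together. Total RNA came from untreated whole embryos of the cross CBA/Ca×C57Bl/10, taken 10.5 days post coitum, counting the day of the plug as 0.5. There was 1 group of 2 replicates (replicate 1 and replicate 2) and no mutant, treatment or second stage, so the data give levels and their spread and no comparison between conditions. Neither the number of embryos in a replicate nor whether the replicates came from separate litters is stated in the labels, so the spread between them may be partly technical.

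These factors direct the making of blood cells. Tal1, a basic helix-loop-helix protein, pairs with an E protein such as Tcf3 and is joined through the bridging proteins Lmo2 and Ldb1 to Gata1 or Gata2, and the resulting complex sits at erythroid genes and their enhancers. Klf1 binds CACCC letters in globin and other red cell promoters, Nfe2 pairs with a small Maf protein, Gfi1b and Bcl11a are zinc finger repressors, and Runx1 and Myb serve the definitive stem and progenitor cells. At this stage the circulating blood consists mostly of primitive red cells from the yolk sac, while definitive progenitors form in the aorta and the vessels of the yolk sac and begin to seed the liver. In a whole embryo all of these cells are mixed with every other tissue: Bcl11a is also a factor of neurons, and Ldb1 partners LIM proteins in many tissues. Fewer cells of a type and less RNA per cell cannot be told apart in such bulk RNA.

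All 10 factors were detected, which here means 1 RPKM (reads scaled by transcript length in kilobases and by library size) or more in both replicates, a level that 49.4% of all loci reached. The levels covered a wide range, from 176 and 142 RPKM for the locus of *Ldb1* to 4.27 and 2.52 RPKM for *Gfi1b* (replicate 1 and then replicate 2, here and below). Of the 10, 6 had a locus of their own: *Klf1*, *Tal1*, *Lmo2*, *Lyl1*, *Gfi1b* and *Nfe2*. The other 4 were joined, *Ldb1* with *Pprc1*, *Bcl11a* with *4930538E20Rik*, and *Runx1* and *Myb* each with an Ensembl gene that has no symbol in the name table, so their values cannot be given to the factor alone. The 2 libraries summed to 18318181 and 117522171 reads over loci, and the rarest factor, *Gfi1b*, had 66 and 175 reads. The median over all loci was 1.76 and 1.003 RPKM, and over the 10 factors it was 15.3 and 7.24 RPKM.

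**Figure D1:**
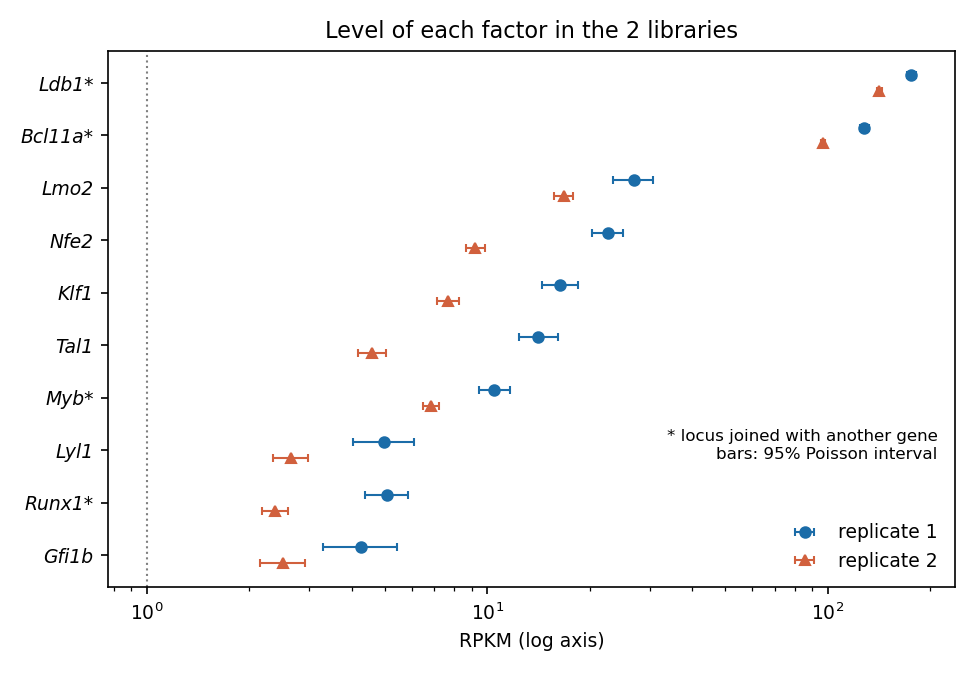
RPKM on a log axis for each factor, with replicate 1 as circles and replicate 2 as triangles, bars as 95% Poisson intervals from the reads, an asterisk for joined loci and a dotted line at 1 RPKM. Replicate 1 lies above replicate 2 for all 10 factors, and the joined loci of Ldb1 (176 and 142) and Bcl11a (128 and 96.9) stand above the rest.

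Some genes of the complex around Tal1 differed in RNA level, which does not give the make-up of the complex itself. *Tal1* stood at 14.2 RPKM in replicate 1 (228 reads, 95% Poisson interval 12.4 to 16.1) and at 4.60 RPKM in replicate 2 (425 reads, 4.17 to 5.06), a mean of 9.37 ± 6.76 (SD, n = 2). Its paralogue *Lyl1*, which can replace part of Tal1 function in blood progenitors, stood at 4.98 (95 reads, 4.03 to 6.08) and 2.65 RPKM (287 reads, 2.35 to 2.97). *Lyl1* was thus below *Tal1* in each library, but *Tal1* in replicate 2 lay below *Lyl1* in replicate 1, so the ranges overlapped. *Lmo2*, the LIM-only bridge, was the highest factor with a locus of its own, at 27.0 (218 reads, 23.5 to 30.8) and 16.8 RPKM (975 reads, 15.8 to 17.9), a mean of 21.9 ± 7.19 (SD, n = 2). The joined locus of *Ldb1*, the dimerizing partner of Lmo2, had 3603 and 13563 reads and 176 and 142 RPKM, more than 96.9% of loci in replicate 1 and 95.4% in replicate 2. Such intervals cover counting error only.

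The activators of red cell genes *Klf1* and *Nfe2* stood close to *Tal1*. *Klf1* was at 16.4 RPKM in replicate 1 (265 reads, 14.5 to 18.5) and 7.66 in replicate 2 (703 reads, 7.10 to 8.25), above 71.9% and 67.8% of loci. *Nfe2*, the large subunit of the factor NF-E2, was at 22.6 RPKM (351 reads, 20.3 to 25.1) and 9.24 RPKM (924 reads, 8.66 to 9.86), above 75.9% and 69.7% of loci. For both genes the lower library was replicate 2, and their 2 ranges overlapped.

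The repressors stood at opposite ends. *Gfi1b*, which recruits the histone demethylase Kdm1a to silence genes in red cell and megakaryocyte precursors, was at 4.27 (3.30 to 5.43) and 2.52 RPKM (2.16 to 2.92). The joined locus of *Bcl11a*, known for silencing embryonic and fetal globin genes in adult red cells, was at 128 (4870 reads) and 96.9 RPKM (19211 reads), above 95.03% and 93.2% of loci. Of the factors of definitive progenitors, *Runx1* was among the lowest 3 factors and *Myb* was in the middle of the order. The joined locus of *Runx1*, needed for blood stem cells to form from endothelium, was at 5.08 (189 reads, 4.39 to 5.86) and 2.38 RPKM (501 reads, 2.18 to 2.60). That of *Myb*, needed for definitive but not primitive red cells, was at 10.5 (349 reads, 9.43 to 11.7) and 6.82 RPKM (1323 reads, 6.46 to 7.20). In *Myb*, *Runx1* and *Gfi1b*, too, replicate 2 was the lower library and the intervals of the replicates did not overlap.

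Ranked by mean RPKM the order was *Ldb1*, *Bcl11a*, *Lmo2*, *Nfe2*, *Klf1*, *Tal1*, *Myb*, *Lyl1*, *Runx1* and *Gfi1b*. The replicates gave the same place to 5 of the 10, and the exchanges were between neighbours or within the lowest 3 (*Lyl1*, *Runx1* and *Gfi1b*). Neighbours were called apart by 2 conditions together. Both values of the upper gene exceeded both of the lower, and the mean log2(RPKM + 1) difference was over 2 SD of the log2 ratio between replicates. That SD was taken at the level midway between the 2 genes on the log2 scale, which may be the level of neither. Of the 9 neighbour steps 1 was apart, from *Bcl11a* down to *Lmo2* (2.33 ± 0.18, SD, n = 2, against a limit of 0.997). *Ldb1* over *Bcl11a* (0.50 ± 0.06) and *Myb* over *Lyl1* (1.02 ± 0.11, limit 1.12) had ranges that did not overlap. Their differences were nevertheless within the spread at the level between them. In the other 6 steps the ranges overlapped, and *Tal1* and *Myb* changed places between replicates (0.40 and -0.48). Over all 45 combinations of 2 factors, 28 were apart.

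Among the factors with a locus of their own, *Lmo2* and *Nfe2* had no promoter matched by symbol. The upstream sequences of the others, *Klf1*, *Tal1*, *Lyl1* and *Gfi1b*, are shown. They come from RefSeq on build GRCm38.p6, a later build than the mm9 of the files, and run 5′ to 3′ on the gene's strand. For *Klf1* the first 200 of the 250 bases before the RefSeq start are given, because the GENCODE annotation starts the gene near the end of that window. For the other genes all 250 are given. Capitals mark 3 kinds of letters on either strand, namely GATA, the E-box CANNTG of basic helix-loop-helix proteins, and CACCC (the letters that Klf factors read). A match describes the letters and shows no binding.
Klf1, chr8:84901732-84901931, plus strand: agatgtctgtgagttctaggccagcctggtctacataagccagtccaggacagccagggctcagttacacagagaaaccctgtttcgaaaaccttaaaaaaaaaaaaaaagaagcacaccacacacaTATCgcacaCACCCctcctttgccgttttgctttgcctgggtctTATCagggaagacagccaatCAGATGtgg
Tal1, chr4:115056176-115056425, plus strand: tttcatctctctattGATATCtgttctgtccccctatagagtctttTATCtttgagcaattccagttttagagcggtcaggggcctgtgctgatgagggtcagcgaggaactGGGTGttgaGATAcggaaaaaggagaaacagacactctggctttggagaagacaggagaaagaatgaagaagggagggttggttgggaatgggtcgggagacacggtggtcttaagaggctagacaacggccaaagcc
Lyl1, chr8:84701207-84701456, plus strand: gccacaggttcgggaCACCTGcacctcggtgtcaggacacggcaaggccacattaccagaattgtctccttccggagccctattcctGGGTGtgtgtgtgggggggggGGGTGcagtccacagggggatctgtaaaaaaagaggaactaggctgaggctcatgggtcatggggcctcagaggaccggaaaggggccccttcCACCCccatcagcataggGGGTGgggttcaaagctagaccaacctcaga
Gfi1b, chr2:28621983-28622232, minus strand: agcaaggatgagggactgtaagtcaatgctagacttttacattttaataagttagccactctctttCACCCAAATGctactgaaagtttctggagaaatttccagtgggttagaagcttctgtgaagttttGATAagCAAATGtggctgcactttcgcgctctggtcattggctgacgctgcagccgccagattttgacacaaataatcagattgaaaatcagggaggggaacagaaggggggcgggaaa

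Of the 10 factors, 8 matched the promoter table by symbol, with 12 start sites. In the full 250 bases *Klf1* held 2 matches to GATA (123 and 79 bases before the RefSeq start), 1 E-box at 59 and 1 CACCC at 114. *Tal1*, at the first of its 2 listed starts, held 4 matches to GATA, of which a pair at 235 and 233 overlap each other, 1 CACCC and no E-box. *Lyl1* held no GATA match, 1 E-box and 4 CACCC matches, and *Gfi1b* held 1 GATA, 2 E-boxes and 1 CACCC, the last overlapping an E-box by a base. The second listed start of *Tal1* held 0 matches to any of the 3. Such letters are common. Among 32851 RefSeq promoters of the same length, 53.6% held GATA, 66.2% CANNTG, 52.0% CACCC and 17.3% all 3. Of the 12 starts of the factors, 6, 6, 10 and 4 did. The Runx letters TGTGGT were found at 1 of the 12 starts, *Klf1* (14.0% of all promoters), and the NF-E2 core TGANTCA at 0 (6.75%).

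Set against paralogues, several factors were the rarer or the more abundant member of their family. Of 27 pairs of a factor with a paralogue, a partner or a gene of another lineage, 19 differed beyond the replicate spread. This meant the same sign in both replicates and a mean over 2 SD at the level midway between the 2 genes. With 2 values a side, no two-sided exact permutation test could go below p = 0.333, so none was used. The locus of *Ldb1* exceeded *Ldb2* (27.7 and 20.3 RPKM) by 2.68 ± 0.08 on the log2(RPKM + 1) scale (SD, n = 2), and that of *Bcl11a* exceeded *Bcl11b* (16.7 and 11.9), a factor of T cells and neurons, by 2.89 ± 0.04. *Gfi1b* exceeded *Gfi1* (0.568 and 0.181, joined), its counterpart in myeloid and stem cells, by 1.66 ± 0.12. *Klf1* exceeded *Klf2* (1.25 and 0.428), a factor of endothelium and primitive red cells, by 2.78 ± 0.25. *Runx1* exceeded *Runx3* (0.145 and 0.520, from 3 and 15 reads) by 1.78 ± 0.89, and *Lmo2* exceeded *Lmo1* (4.44 and 3.89) by 2.11 ± 0.35.

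Other paralogues were the more abundant. *Mybl2*, the proliferation-linked Myb protein, stood at 55.3 and 33.5 RPKM and *Mybl1* at 34.6 and 29.9, and *Myb* lay below them by -2.22 ± 0.11 and -1.81 ± 0.25. *Nfe2* lay below *Nfe2l2* (59.6 and 35.1), the oxidative stress factor, by -1.59 ± 0.33, and *Lmo2* lay below *Lmo4* (72.0 and 54.4) by -1.51 ± 0.18, close to its limit of 1.498 and within the limit with a pseudocount of 0.1 or 0.01. *Tal1* and *Tal2* (9.88 and 7.59) had opposite signs in the replicates (0.48 and -0.62). *Tal1* over *Lyl1* (0.98 ± 0.51, limit 1.12), *Klf1* under *Klf3* (27.5 and 13.9; -0.75 ± 0.05) and *Runx1* under *Runx2* (6.53 and 3.64, joined; -0.38 ± 0.11) were within the spread. In replicate 1 taken alone, *Tal1* over *Lyl1* was beyond it (1.34), while *Lmo2* against *Lmo4* (-1.38) and against *Tal1* (0.88) were not.

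Several partners that many tissues use stood above the blood factors they bind, while others, among them the small Maf genes *Mafk* and *Maff*, did not. *Tcf3* was at 77.2 and 83.7 RPKM, so that *Tal1* lay below it by -3.14 ± 1.10. *Kdm1a* (150 and 146 RPKM) exceeded *Gfi1b* 35.1-fold and 58.0-fold by RPKM, and *Cbfb* (79.8 and 80.8), the partner of Runx proteins, exceeded *Runx1* 15.7-fold and 33.9-fold. *Nfe2* lay between the small Maf gene *Mafk* (5.68 and 3.69, *Nfe2* higher by 1.47 ± 0.49) and *Bach1* (86.3 and 59.3, *Nfe2* lower by -2.22 ± 0.48), a repressor that competes for the same sites. Of the other small Maf genes, *Mafg* (41.6 and 26.1) stood above *Nfe2* in each replicate and *Maff* (0.886 and 0.574) below it. *Mafg* was named after its values were seen. *Lmo2* lay below the *Ldb1* locus by -2.83 ± 0.24 and above *Tal1* by 1.28 ± 0.55. The partners of the Gata family were close instead. *Gata1*, at 14.8 and 5.54 RPKM, was within the spread of *Tal1* (-0.14 ± 0.12) and *Klf1* (0.27 ± 0.19), and *Gata2* (2.61 and 1.57) within that of *Runx1* (0.57 ± 0.25). *Klf1* was likewise within the spread of *Myb* (*Myb* lower by -0.37 ± 0.32), below the *Bcl11a* locus by -3.20 ± 0.43, and above the myeloid factor *Spi1* (0.587 and 1.05, from 10 and 104 reads) by 2.77 ± 0.97.

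**Figure D2:**
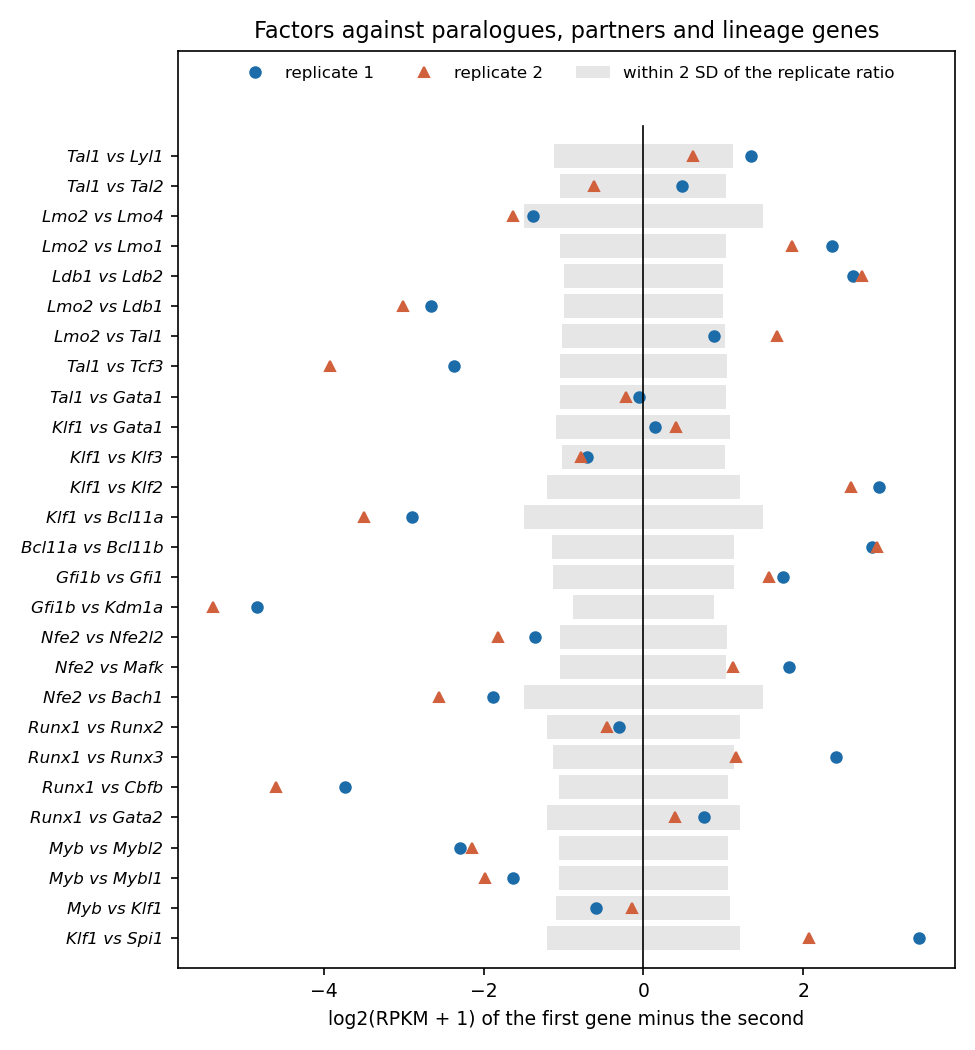
Difference of log2(RPKM + 1) between the genes of each pair, first minus second, in replicate 1 (circles) and replicate 2 (triangles). Grey bars give the range within 2 SD of the log2 ratio between replicates at the level midway between the 2 genes. In 19 of 27 pairs the mean of the 2 points is outside the bar, and Tal1 against Tal2 is the pair whose points lie on both sides of 0.

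All 10 factors had a lower RPKM in replicate 2, as did 79.1% of the 18335 loci with a mean of 1 RPKM or more, so the direction itself is that of most loci. The median log2 ratio of RPKM + 1, replicate 2 over replicate 1, was -0.38 over those loci and -0.68 over the factors. *Tal1* (-1.44), *Nfe2* (-1.21) and *Klf1* (-1.01) were at least 2-fold lower in replicate 2, which makes 3 of 10 factors where 8.74% of loci were, and 0 factors were 2-fold higher where 3.03% of loci were. The ratio also changed with level. Among the 6731 loci with a mean within the range of the 6 factors with a locus of their own, 12.9% were 2-fold lower and the median was -0.52. Within level groups of 916 or 917 loci, 3.82% had a lower ratio than *Tal1*, 3.38% a lower ratio than *Nfe2* and 12.1% a lower ratio than *Klf1*. The ratios of *Myb* (-0.56) and *Gfi1b* (-0.58) were 0.03 and 0.05 below their group medians (-0.53 each), while *Lmo2* (-0.65), *Lyl1* (-0.71) and *Runx1* (-0.85) had 26.7%, 35.2% and 26.1% of their groups below them. The joined loci of *Ldb1* (-0.31) and *Bcl11a* (-0.40) were near the overall median, but they lay 0.39 and 0.30 below the medians of their level groups, where 13.0% and 15.7% of loci had a lower ratio. In RPKM all 10 factors lay below the median of their level group, but for some the length behind the RPKM differed between the libraries (below). With the replicates rescaled to the same median RPKM, *Ldb1* (0.19) and *Bcl11a* (0.10) were higher in replicate 2. In CPM, however, both were lower there by more than the median locus (below). After the rescaling *Tal1* (-1.01) alone was at least 2-fold lower, with *Klf1* at -0.56 and *Nfe2* at -0.75.

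**Figure D3:**
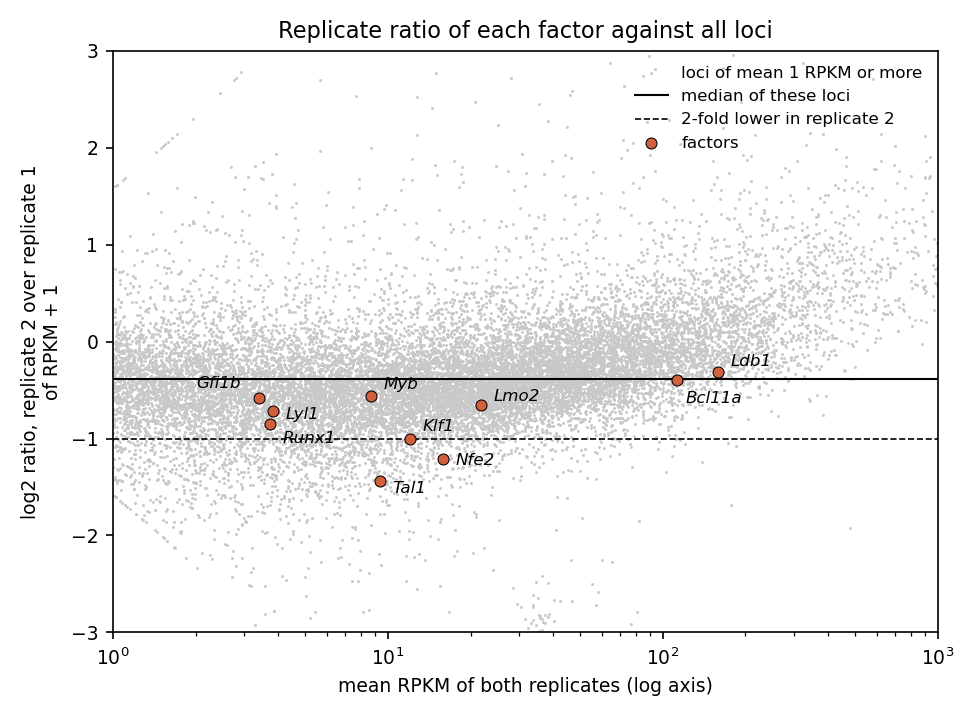
Log2 ratio of RPKM + 1, replicate 2 over replicate 1, against mean RPKM (log axis) for loci of mean 1 RPKM or more (grey) and the factors (orange), with lines at the median of the loci (-0.38) and at 2-fold lower; 225 loci are outside the axes. Tal1 (-1.44), Nfe2 (-1.21) and Klf1 (-1.01) lie at or under the 2-fold line.

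Read counts gave a similar picture, with *Tal1* again differing most. Scaled to the library's reads over loci (CPM), *Tal1* was 3.44-fold higher in replicate 1 (exact binomial 95% interval 2.92 to 4.05), *Nfe2* 2.44-fold (2.15 to 2.76) and *Klf1* 2.42-fold (2.09 to 2.79), beside a median of 1.55-fold over the loci. *Runx1* had 2.42-fold (2.04 to 2.87) and *Lyl1* 2.12-fold (1.67 to 2.69, an interval that includes 2). The share of all loci past 2-fold in CPM without a pseudocount was not computed. On the log2(CPM + 1) scale, where 8.87% of loci were at least 2-fold lower in replicate 2, *Runx1* was (-1.10) and *Lyl1* was not (-0.85). *Lmo2* had the smallest CPM fold of the factors, 1.43 (1.23 to 1.66, an interval that includes the median of 1.55). The length behind the RPKM of *Lmo2*, a locus of 10 transcripts, was 1.26 times as long in replicate 2. Its RPKM fold was 1.61 and would be 1.27 at the same length in both libraries. The length for *Gfi1b* was 0.791 times as long. Its RPKM fold was 1.70 and would be 2.14 at the same length in both libraries. In CPM its fold was 2.42 (1.79 to 3.23), the same as for *Klf1*. At the joined loci of *Ldb1* and *Bcl11a* the length was 0.824 and 0.919 times as long in replicate 2. Their CPM folds were 1.70 (1.64 to 1.77) and 1.63 (1.58 to 1.68), above the median of 1.55. For *Klf1* and *Lyl1*, with 1 transcript each, the length was the same (1.00), and their RPKM folds were 2.14 and 1.88. The library ratio also differed between the units, at 6.42 in reads over loci and 5.68 in reads per RPKM.

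Most other red cell genes were also lower in replicate 2, at 20 of 25 loci, a share close to the 79.1% of all loci; the exceptions were 4 globin loci and *Aqp1*. Of these 25 loci listed as erythroid output, 24 were detected, their median being 34.0 and 21.4 RPKM. Among these 24, 8 loci were at least 2-fold lower in replicate 2 (8.74% of all loci) and 3 at least 2-fold higher (3.03%). The 3 were the globins *Hbb-y* (1746 and 6474 RPKM), *Hba-a1* (1054 and 4619) and *Hba-x* (1284 and 3219). The value of *Hba-a1* is uncertain, as it has a near-identical copy and how reads that match both were counted is not stated. Among the 8, named after their values were seen, were *Rhag* (14.5 and 4.15), a Rh complex protein of the red cell membrane, *Ermap* (25.8 and 8.44), *Kel* (27.1 and 10.3) and the heme enzyme *Alas2* (131 and 60.3). *Aqp1* was lowest (0.504 and 0.738). The summed level of the list, most of it globin, was 6560 and 17213 RPKM. Over the 24 loci the median log2 ratio was -0.77, next to -0.68 for the factors. *Gata1* was also 2-fold lower (-1.27). The part of red cell content in the ratios of the factors was not tested.

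Lists of other cell types had median ratios nearer to that of all loci, with no matching for level. The ratio changed with level, and its median was -0.52 over loci within the range of the 6 factors with a locus of their own. The median log2 ratio was -0.34 over 10 endothelial loci, -0.28 over 9 megakaryocyte loci, -0.33 over 12 blood progenitor loci, -0.53 over 9 myeloid and lymphoid loci and -0.22 over 10 neuron loci, beside -0.38 over all loci; the differences between lists were not tested. All 10 endothelial loci were detected, with a median of 19.1 and 14.9 RPKM, led by *Pecam1* (36.2 and 24.6), *Kdr* (28.8 and 27.2) and *Emcn* (26.7 and 23.6) and with *Sox18* lowest (2.04 and 1.35). Endothelium is known to use *Lmo2*, *Tal1* and *Lyl1* as well. Their share of these transcripts was not tested. Megakaryocyte loci were detected at 7 of 12, led by the platelet factor *Pf4* (27.9 and 26.6), *Itga2b* (14.6 and 13.1) and *Vwf* (9.90 and 4.87), with *Selp* at 0 reads in both. That value is for the locus of *Selp* alone, as another locus joins it with *F5*.

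Progenitor loci were detected at 12 of 14, with a median of 12.9 and 9.30 RPKM. The joined loci of *Meis1* (217 and 251), *Mecom* (122 and 91.8) and *Cd34* (47.4 and 48.8) were highest and the progenitor receptor *Flt3* lowest (0.194 and 0.0384). Myeloid and lymphoid loci were detected at 8 of 16, with a median of 2.24 and 1.16 RPKM. Their highest values belong to loci joined with other genes, *Prtn3* with *Ptbp1* (315 and 257) and *Rag1* with *Rag2* and *B230118H07Rik* (61.9 and 64.0), then *Cd68* (13.4 and 8.96). All 10 neuron loci were detected, led by *Tubb3* (146 and 164), *Stmn2* (99.8 and 142) and *Dcx* (68.8 and 75.6), with *Syt1* lowest (7.54 and 5.35). The median of the neuron loci was 28.6 and 24.0 RPKM, below the *Bcl11a* locus (128 and 96.9), and which cells the reads of *Bcl11a* came from was not tested.

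**Figure D4:**
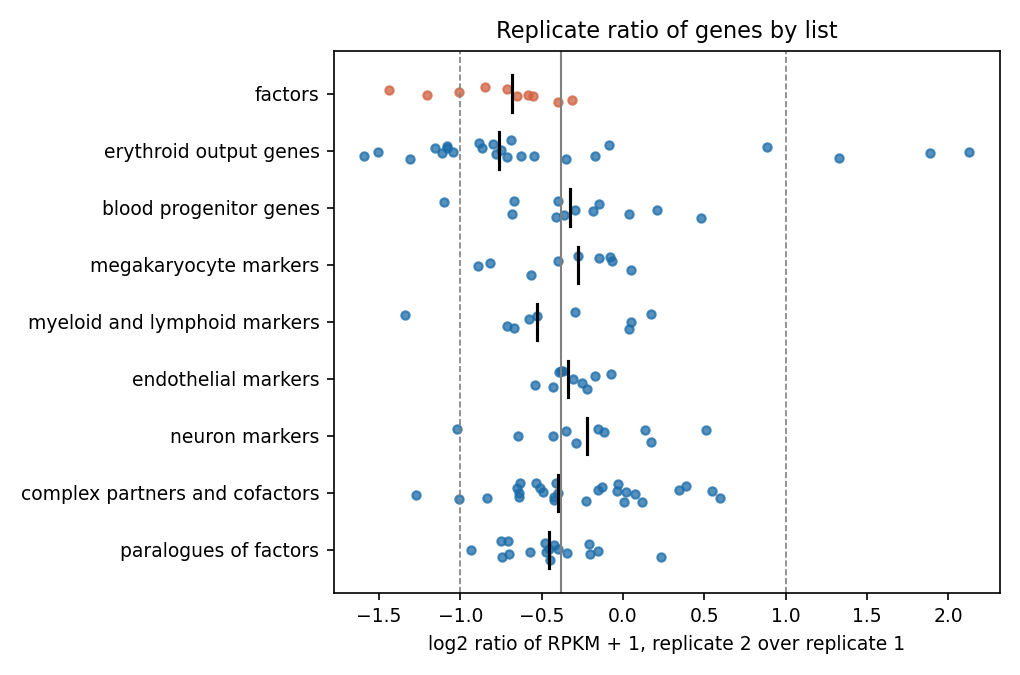
Log2 ratio of RPKM + 1, replicate 2 over replicate 1, for the loci of each list with a mean of 1 RPKM or more (points, shifted up or down at random), with the list median as a black bar, the median of all such loci as a grey line and dashed lines at 2-fold. To the left of the grey line lie the medians of the factors (-0.68) and of the erythroid output genes (-0.77). So do those of the myeloid and lymphoid markers (-0.53), the paralogues (-0.46) and the partners and cofactors (-0.40). The 4 globin loci lie above 0.

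The partners and cofactors were detected at 27 of 28 loci, and their median was 53.5 and 43.9 RPKM. Of the 27 loci with a mean of 1 RPKM or more, 2 were at least 2-fold lower in replicate 2, *Gata1* and the acetyltransferase locus *Ep300* (53.1 and 25.9, joined). The remodeler *Chd4* (726 and 1059 RPKM), the deacetylase *Hdac2* (290 and 439) and *Tcf12* (149 and 195), an E protein that pairs with Tal1, were highest, and the small Maf gene *Maff* was lowest (0.886 and 0.574). Among the partners known to be restricted to blood or enriched there, *Zfpm1* (13.9 and 7.35), which binds Gata1, and *Cbfa2t3* (4.92 and 2.79, joined), a corepressor of the Tal1 complex, stood at the level of *Klf1* and *Lyl1*; both were named after their values were seen.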

How the data were processed

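Reads of total RNA were aligned with TopHat to mm9, per the submitters' processing notes. The counter, filters and use of strand stand in no source used here, and reads of overlapping antisense genes may be mixed. Each file held RPKM values and whole read counts per row, both made and deposited by the authors, per the file headers. Of 34676 rows, those with the same gene identifiers were summed. RPKM was the unit of levels, and counts gave depth, Poisson and binomial intervals (95%, counting error only) and CPM. With 1 group no count model was fitted. Ratios used log2(RPKM + 1), which understates differences of low genes. The spread was the SD of that ratio in 20 level groups of the loci with a mean of 1 RPKM or more. The length behind the RPKM was compared through reads per RPKM, whose ratio between replicates was 5.68 (within 1 percent) in 100.0% of loci with 1 transcript and 23.2% of the others, both with over 200 reads in replicate 1.

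Named genes were all factors, both genes of every pair, and of each list the 3 highest, the lowest and any at 0 reads in both replicates; 1 of these is not reported here. Factors, lists and pairs were chosen with earlier results of these data known. The code was tested on simulated data. Alternatives covered the minimum, pseudocount, unit, scaling, filter, loci by their highest row, and leaving out each replicate. Python 3.11.15, numpy 2.4.6, pandas 2.3.3 and scipy 1.17.1 were used.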

Additional observations from a re-analysis of the deposited data

How the results depend on the processing

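All 10 factors were detected at a minimum of 0.3 RPKM (57.9% of all loci) and in CPM (44.7%). The same held in replicate 1 alone (54.8%) and in replicate 2 alone (50.1%). At 3 RPKM (40.6%) 7 were detected, and *Lyl1*, *Runx1* and *Gfi1b* were lost. With loci of their own only, chosen after seeing the data as an alternative, the count was 6 of 6, and 10 of 15 pairs were beyond the spread. Over all 27 pairs the count was 18 with pseudocounts of 0.1 and 0.01, where *Lmo2* against *Lmo4* was lost, and 18 to 19 with a replicate left out. The number of factors at least 2-fold lower in replicate 2 was 3 with RPKM + 1 (8.74% of loci). It was 4 (*Runx1* added) with pseudocounts of 0.1 (14.7% of loci) and 0.01 (15.5%) and on the log2(CPM + 1) scale (8.87%). With the replicates rescaled to the same median it was 1 (3.54% of loci). With the same length in both libraries, also chosen after seeing the data, it was 3, and the share of all loci was not computed. *Bcl11a* over *Lmo2* was the step called apart under every alternative run. The counts of detected loci in the 8 lists stayed within 1.5 times. No paired analysis was possible because there is only 1 group. The depth of replicate 1 limits the rarest factors, as *Gfi1b* had a counting error of 12.3% there.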

Other observations

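Among the wider families of these factors, 17 of 20 paralogue loci were detected, with a median of 12.9 and 8.97 RPKM. *Nfe2l1*, a widely used relative of Nfe2, was highest (128 and 91.1), and *Nfe2l3* (15.9 and 10.3) stood near *Nfe2*. In the Klf family, *Klf3* and *Klf6* (25.8 and 18.6) were above *Klf1*, and *Klf13* (8.82 and 4.84), *Klf5* (3.64 and 2.33) and *Klf4* (1.57 and 1.22), known from pluripotent cells and epithelia, were below it in each replicate. Of these 17 loci 0 were at least 2-fold lower in replicate 2 and 0 at least 2-fold higher. *Lmo3* (6.31 and 7.61) and *Runx3* were the 2 of 20 with a higher RPKM in replicate 2. The genes of this paragraph that are no pair genes, other than *Nfe2l1*, were named after their values were seen.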
